A study of Mus musculus with 9 samples.

Results

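The 10 genes described here, Pdgfra, Pdgfrb, Fap, Pdpn, Thy1, Dcn, Lum, Dpt, Pi16 and S100a4, are widely used as markers of fibroblasts and of their subsets. They were chosen by symbol, and all 10 were found by Entrez identifier among the 18755 genes of the counts. RNA was taken from whole 4T1 primary tumors grown in the mammary fat pad of female BALB/c mice that were 6 to 10 weeks old at injection, 4T1 being a murine metastatic breast cancer cell line. From day 15 after injection, 6 mice received BI 853520, an inhibitor of focal adhesion kinase (FAK), orally at 50 mg/kg for 5 days, and 3 mice received the vehicle, 0.5% Natrosol, over the same period. Every tumor grew from the same cell line. As whole tumors were used, host fibroblasts, immune cells, vessels and tumor cells were sequenced together. The authors had left out tumors whose RNA was of poor quality. The treatment is abbreviated BI below, and tumors are numbered within their group. Total counts per tumor lay between 16931607 and 33850245, and 1 count was worth between 0.0295 and 0.058 CPM (counts scaled to 1000000 counts per tumor). This step covers counting error only. The markers had between 53 (Fap) and 20913 (S100a4) counts in single tumors. All 10 passed the filter on low counts.

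Fibroblasts of a tumor, often called cancer-associated fibroblasts (CAFs), build and remodel its matrix and are a mixture of states. Pdgfra is the receptor used most often to recognize fibroblasts, while Pdgfrb is shared by fibroblasts and the mural cells of vessels. Fap and Pdpn are surface proteins linked to activated fibroblasts, Dcn, Lum and Dpt are secreted matrix proteins, and Pi16 marks the resident fibroblasts around vessels that are thought of as a reservoir for other states. None of these genes is confined to fibroblasts: T cells carry Thy1, lymphatic endothelium carries Pdpn, and macrophages and tumor cells can express S100a4.

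Of the 10 markers, 2 rose after BI treatment, Pi16 and Thy1, and none fell. Pi16 was 3.02-fold and Thy1 1.42-fold higher. All genes that passed the filter, 13966, were tested together with edgeR's quasi-likelihood test and Benjamini-Hochberg adjustment, and "edgeR adjusted p" below is that value, with 0.05 as its limit. At this limit 14.6% of all genes tested rose and 14.1% fell, so that 2 of 10 is close to the share of all genes. The same shares stand beside the counts of every gene list below. The count of 0 falling markers was also 0 at an unadjusted p of at most 0.05, and with DESeq2 and limma-voom. With the study's cutoffs, an unadjusted p of at most 0.05 and a 1.5-fold change, the markers that rose were again 2, now Pi16 and Dpt, beside 9.59% of all genes tested, and 0 fell, beside 3.57% of all genes. Only for Pi16, of the 10 markers, did every BI-treated tumor lie above every vehicle-treated tumor, which was the case in 14.1% of all genes tested. For no marker did all treated tumors lie below, which 14% of all genes did. The log2 fold change was positive in 7 markers and negative in 3, with a median of 0.49, beside a median of -0.00371 over all genes tested. In RNA of whole tumors, more cells of a type and more RNA per cell cannot be told apart.

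**Figure D1:**
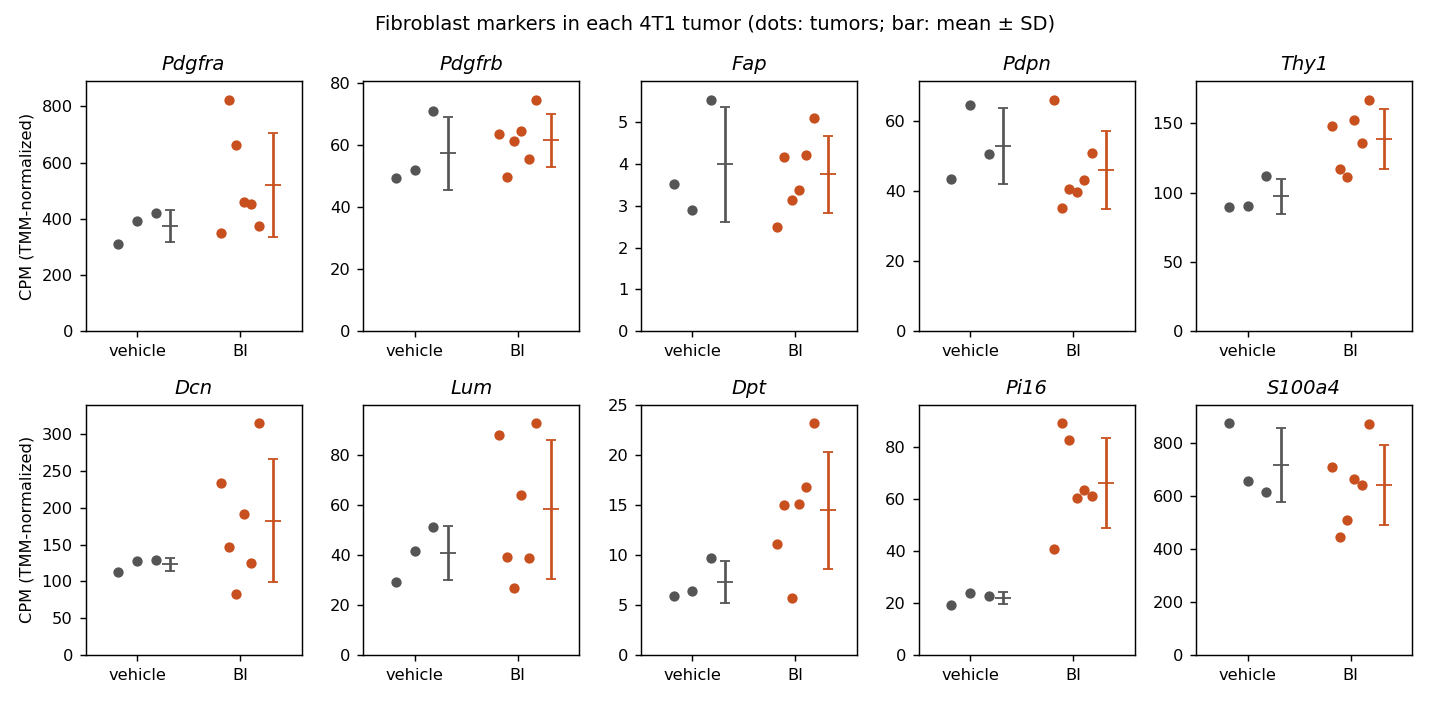
TMM-normalized CPM of the 10 markers (vertical axes, from 0) in 3 vehicle-treated (grey) and 6 BI-treated tumors (orange), with 1 dot per tumor and the mean ± SD beside the dots. Only in the panel of Pi16 do the treated tumors (40.8 to 89.1 CPM) clear all vehicle-treated tumors (19.1 to 23.7 CPM).

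**Figure D2:**
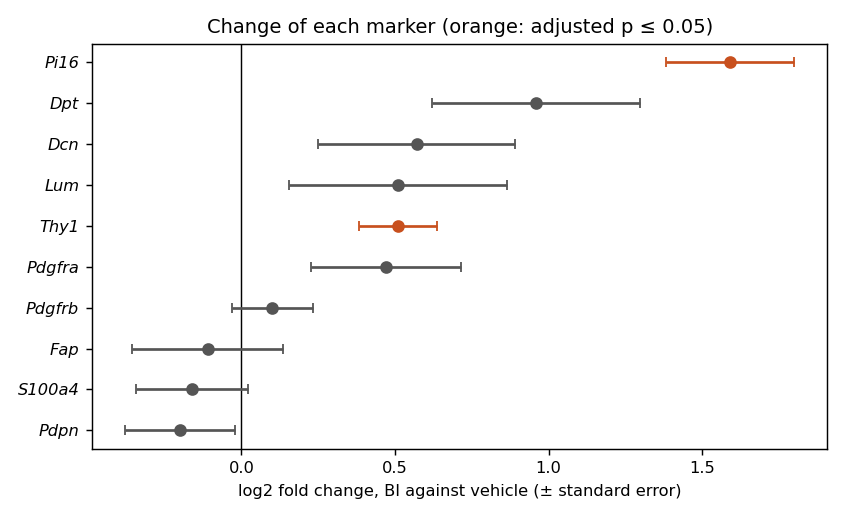
Log2 fold change of BI against vehicle (horizontal axis) with its standard error for each marker, in order of size. Pi16 (1.59) and Thy1 (0.51), in orange, passed an adjusted p of 0.05, and Dcn and Lum had changes of like size to that of Thy1 with wider errors.

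Levels were compared between genes per kilobase of the deposited gene length. S100a4 stood far above the others, at 1435 ± 278 CPM per kilobase in vehicle-treated tumors (SD, n = 3), and exceeded the next gene in 9 of 9 tumors. Dcn (59.1 ± 4.38), Thy1 (56.1 ± 7.12) and Pdgfra (55.7 ± 8.36 CPM per kilobase, each n = 3) formed a middle group whose levels did not differ beyond their spread. Each of these 3 lay above the following gene of the order in 6 to 9 of the 9 tumors. Pdpn (29.9 ± 6.11 CPM per kilobase) and Lum (19.6 ± 5.23) came next, then Pdgfrb (10.6 ± 2.18) and Pi16 (9.75 ± 1.09), which were indistinguishable in vehicle-treated tumors. Dpt (4.47 ± 1.27 CPM per kilobase) and Fap (1.48 ± 0.508) were the lowest, and Dpt exceeded Fap in 9 of 9 tumors. After BI treatment Pi16 had a level of 29.5 ± 7.73 CPM per kilobase (SD, n = 6), beside 28 ± 13.3 for Lum and 11.4 ± 1.57 for Pdgfrb.

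Pdgfra and Pdgfrb encode the receptor tyrosine kinases for platelet-derived growth factor, which drive the growth and migration of mesenchymal cells. Pdgfra (Entrez gene 18595) is on mm9 chromosome 5, from 75548316 to 75594229. It had 312, 393 and 421 CPM in the vehicle-treated tumors and between 348 and 824 CPM in the treated tumors, with a median of 456. The groups overlapped, and BI replicates 2 (824 CPM) and 3 (662 CPM) stood above the other treated tumors, which ended at 459.9 CPM. Its log2 fold change was 0.47 (SE 0.244, edgeR adjusted p = 0.17), and 0.29 without BI replicate 2. Pdgfrb (Entrez gene 18596) is on mm9 chromosome 18, from 61204804 to 61244715. It had 49.3, 51.8 and 70.8 CPM with vehicle and between 49.6 and 74.6 CPM with BI (median 62.3), so that 5 of the 6 treated tumors lay inside the vehicle range. Its log2 fold change was 0.10 (SE 0.132, edgeR adjusted p = 0.612). It was 0.00 without vehicle replicate 1, 0.03 without vehicle replicate 2, 0.04 without BI replicate 6 and 0.28 without vehicle replicate 3. The log2 ratio of Pdgfra to Pdgfrb within a tumor was 2.71 ± 0.18 with vehicle (SD, n = 3) and 3.01 ± 0.64 with BI (n = 6), a difference of 0.30 that did not pass (exact permutation test over 84 divisions of the 9 tumors, two-sided, p = 0.524). Without BI replicate 2 this difference was 0.10.

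Of the 4 ligands of these receptors, 1 rose and 2 fell, beside 14.6% and 14.1% of all genes tested. Their median log2 fold change was -0.14. Pdgfc, which acts mainly through the alpha receptor, rose from 3.8 ± 1.11 to 8.94 ± 1.98 CPM, with all 6 treated tumors above the vehicle-treated tumors (log2 fold change 1.22, edgeR adjusted p = 0.00197). Pdgfa, the most abundant of the 4 per kilobase, fell from 157 ± 21.9 to 109 ± 22.8 CPM (edgeR adjusted p = 0.0243), and Pdgfb fell from 36.3 ± 2.3 to 29.9 ± 2.68 CPM (edgeR adjusted p = 0.0254). Both calls were lost in some of the fits that left out 1 tumor. The edgeR adjusted p of Pdgfa was 0.116 without vehicle replicate 3 and 0.0751 without vehicle replicate 2. For Pdgfb it was 0.0901 without vehicle replicate 1, 0.0945 without vehicle replicate 2 and 0.0505 without BI replicate 5. In these fits the log2 fold change stayed between -0.63 and -0.43 for Pdgfa and between -0.33 and -0.25 for Pdgfb. Leaving out a vehicle replicate also lowered the number of calls over all genes. With all tumors 2040 genes rose and 1973 fell, and without 1 vehicle replicate 1332 to 1516 rose and 1172 to 1550 fell. Pdgfd did not pass.

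For the mural cells that share Pdgfrb, a list of 14 markers had 13 genes tested, of which none rose or fell with edgeR, DESeq2 or limma-voom, while 1 was higher and 0 lower at an unadjusted p of at most 0.05. Their median log2 fold change was 0.03. The summed level of the 14 genes lay between 161 and 188 CPM with vehicle and between 174 and 237 CPM with BI, the highest sum being that of BI replicate 2. Mcam, the most abundant of the list per kilobase, had 46.1 ± 3.38 and 48.9 ± 7.82 CPM in the 2 groups.

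Fap encodes a serine protease of the cell surface and Pdpn a mucin-like membrane glycoprotein, and both are used to mark activated CAFs. Fap (Entrez gene 14089) is on mm9 chromosome 2, from 62339000 to 62412132. It had 3.53, 2.91 and 5.54 CPM with vehicle and between 2.5 and 5.1 CPM with BI (median 3.77), with the highest level in a vehicle-treated tumor and the lowest in a treated one. Its log2 fold change was -0.11 (SE 0.246, edgeR adjusted p = 0.772), and it was 0.21 without vehicle replicate 3. Pdpn (Entrez gene 14726) is on mm9 chromosome 4, from 142857334 to 142889467. It had 43.4, 64.7 and 50.7 CPM with vehicle and between 35.3 and 66.2 CPM with BI (median 42). In 4 of the 6 treated tumors Pdpn was below every vehicle-treated tumor, but BI replicate 1 had the highest level of all 9. Its log2 fold change was -0.20 (SE 0.178, edgeR adjusted p = 0.428). It was -0.03 without vehicle replicate 2, -0.13 without BI replicate 2, -0.32 without vehicle replicate 1 and -0.33 without BI replicate 1 (edgeR adjusted p = 0.0857). For Pdpn to Fap, the log2 ratio differed by -0.15 between the groups (exact permutation test, two-sided, p = 0.81).

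For lymphatic endothelium, a further source of Pdpn, few markers could be tested. Of 6 markers, 5 were in the counts and 3 were tested. None passed with edgeR, DESeq2 or limma-voom or reached an unadjusted p of 0.05. The sum of the 5 genes was between 19.6 and 35.3 CPM with vehicle and between 25.4 and 40.3 CPM with BI. Most of it was Lyve1 (21 ± 8.36 and 27.8 ± 6.92 CPM), which macrophages also express, and whose edgeR adjusted p was 0.24 (0.046 without vehicle replicate 2).

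Thy1 (Entrez gene 21838), a glycolipid-anchored surface protein of fibroblasts, T cells and neurons, is on mm9 chromosome 9, from 43851467 to 43856662. It had 89.7, 90.6 and 112 CPM in the vehicle-treated tumors, and the treated tumors ranged from 111 to 167 CPM with a median of 142. In 5 of the 6 treated tumors Thy1 was above every vehicle-treated tumor, and BI replicate 3 (111 CPM) lay just under vehicle replicate 3 (112 CPM). Thy1 rose by a log2 fold change of 0.51 (SE 0.127, edgeR adjusted p = 0.0116). Leaving out vehicle replicate 1 or 2 ended the call, with edgeR adjusted p values of 0.0586 and 0.0528 and fold changes of nearly the same size (0.45 and 0.46).

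T cell markers moved in the same direction as Thy1. Of 12 T cell genes, all tested, 11 rose and 0 fell, also 0 at an unadjusted p of at most 0.05 and with DESeq2 and limma-voom, with a median log2 fold change of 1.10. Their summed level was between 90.9 and 99.3 CPM with vehicle and between 164 and 235 CPM with BI, and no gene of the list was at 0. Cd3e, a chain of the T cell receptor complex, rose from 12.5 ± 0.444 to 27.6 ± 4.1 CPM (edgeR adjusted p = 8.58e-05), Cd2 from 4.31 ± 0.855 to 9.61 ± 1.19 CPM and Cd3g from 12.3 ± 0.938 to 26.1 ± 4.77 CPM. The log2 ratio of Thy1 to Cd3e was 2.91 ± 0.13 with vehicle (SD, n = 3) and 2.30 ± 0.32 with BI (n = 6), lower in 6 of 6 treated tumors, a difference of -0.60 (exact permutation test, two-sided, p = 0.0238, the smallest this design allows, and 0.0833 after Benjamini-Hochberg adjustment over 7 ratios). With 2 CPM added to both genes in place of 0.5, this difference was -0.53 and did not pass (exact permutation p = 0.0714). BI replicate 6 had both the highest Thy1 (167 CPM) and the highest sum of T cell genes (235 CPM), and BI replicate 4 was high in both (152 and 218 CPM). The treated tumor with the lowest Thy1, BI replicate 3, had the second highest sum of T cell genes (227 CPM). BI replicate 1, with the lowest sum among treated tumors (164 CPM), had 148 CPM of Thy1. The part of T cells in the change of Thy1 was not tested.

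Dcn and Lum encode decorin and lumican, small leucine-rich proteoglycans that bind collagen fibrils, and Dpt encodes dermatopontin, a matrix protein that binds decorin. Dcn (Entrez gene 13179) is on mm9 chromosome 10, from 96942245 to 96980777 and Lum (Entrez gene 17022) on the same strand from 97028135 to 97035337, with 47.4 kilobases between them. Dcn had 113, 128 and 129 CPM with vehicle and between 82.6 and 315 CPM with BI (median 169.7). The treated tumors thus lay on both sides of a narrow vehicle range, 4 above it and BI replicate 3 below it. The log2 fold change of Dcn was 0.57 (SE 0.321, edgeR adjusted p = 0.206). Lum had 29.3, 41.5 and 51 CPM with vehicle and between 26.6 and 92.5 CPM with BI (median 51.5), with BI replicates 1, 4 and 6 above and BI replicate 3 below the vehicle range. The log2 fold change of Lum was 0.51 (SE 0.355, edgeR adjusted p = 0.307), and 0.32 without vehicle replicate 1. The log2 ratio of Dcn to Lum was 1.62 ± 0.30 with vehicle and 1.66 ± 0.17 with BI (exact permutation test, two-sided, p = 0.786).

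Dpt (Entrez gene 56429) is on mm9 chromosome 1, from 166726863 to 166754397. It had 5.87, 6.39 and 9.69 CPM with vehicle and between 5.65 and 23.2 CPM with BI (median 15.1). Dpt was above every vehicle-treated tumor in 5 of the 6 treated tumors and below them all in BI replicate 3. Its log2 fold change was 0.96 (SE 0.339), with an unadjusted p of 0.0148 and an edgeR adjusted p of 0.0511, just short of the threshold. Without BI replicate 3 the log2 fold change was 1.13 and the edgeR adjusted p 0.00493, without BI replicate 1 it was 0.0491, and with no filter on low counts 0.0411. The log2 ratio of Dpt to Fap was 0.81 ± 0.18 with vehicle and 1.73 ± 0.49 with BI, higher in 5 of 6 treated tumors (exact permutation test, two-sided, p = 0.0476, adjusted 0.111 over 7 ratios). Leaving out vehicle replicate 1 or 3 raised this exact p to 0.143, and leaving out BI replicate 1, 2, 4, 5 or 6 raised it to 0.0714. Without vehicle replicate 2 this exact p was also 0.0714, which is the smallest that the 28 divisions left can give.

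Other genes tied to the matrix were counted from 2 lists, beside 14.6% of all genes tested that rose and 14.1% that fell. Of 14 further small leucine-rich proteoglycans, 8 were tested, of which 2 rose and 2 fell, with a median log2 fold change of 0.56. Podn (from 2.21 ± 0.411 to 4.99 ± 1.04 CPM) and Prelp (from 10.9 ± 1.55 to 17.2 ± 4.27 CPM) rose, while Podnl1 (from 60.7 ± 1.48 to 39.8 ± 3.24 CPM) and Ogn (from 8.17 ± 1.8 to 4.16 ± 1.31 CPM) fell. The adjusted p of Prelp exceeded 0.05 without vehicle replicate 1 (0.112) or 2 (0.0831), and that of Ogn without vehicle replicate 3 (0.0885). Biglycan (Bgn), the most abundant of them, had 230.1 ± 58 CPM with vehicle and 317 ± 93.7 CPM with BI (edgeR adjusted p = 0.175). Epyc, Optc, Chad and Nyx had at most 3 counts in any tumor. The other list held 22 genes that fibroblasts express: collagens, other matrix genes, and inhibitors and proteases such as Serping1 and Mmp2. All were tested, and 8 rose and 1 fell, with a median log2 fold change of 0.57. Serping1, a complement inhibitor, rose from 68.3 ± 13.6 to 116 ± 18.2 CPM, Fbln1 from 6.02 ± 2.09 to 14.2 ± 4.8 CPM and Eln, which encodes elastin, from 6.89 ± 0.972 to 18.5 ± 8.98 CPM, while Pcolce, an enhancer of procollagen processing, fell from 201 ± 8.84 to 130.3 ± 16.1 CPM. Without vehicle replicate 1 the adjusted p was 0.0517 for Fbln1 and 0.0509 for Eln, and without vehicle replicate 2 it was 0.0509 for Eln. Sparc, the most abundant per kilobase, had 919 ± 131 and 1107 ± 124 CPM (edgeR adjusted p = 0.0886, and 0.0405 without vehicle replicate 3). The sum of the 22 genes was between 4358 and 6332 CPM with vehicle. Among the treated tumors it was highest in BI replicates 1, 4 and 6 (8664, 8527 and 9480.2 CPM) and lowest in BI replicate 3 (4754 CPM), the tumors that were also highest and lowest for Dcn and Lum.

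Markers of fat tissue, which surrounds tumors of the mammary fat pad, followed Dcn and Lum in some treated tumors and not in others. Of 10 adipocyte genes, all tested, 2 rose (Pparg from 3.82 ± 1.27 to 7.49 ± 2.03 CPM and Lipe from 20.1 ± 0.328 to 26.4 ± 3.91 CPM) and 0 fell, also 0 at an unadjusted p of at most 0.05 and with DESeq2 and limma-voom, with a median log2 fold change of 1.01. Both calls were lost without vehicle replicate 3 (adjusted p = 0.0743 and 0.0867) and without vehicle replicate 2 (0.055 and 0.068), and that of Lipe also without vehicle replicate 1 (0.068). Fabp4, a fatty acid carrier and the most abundant per kilobase, had 38.7 ± 9.2 and 88 ± 63.4 CPM (edgeR adjusted p = 0.0737, and 0.0395 without BI replicate 3). The summed level was between 66.8 and 99.6 CPM with vehicle and between 98.3 and 409 CPM with BI, with none of the 10 at 0. BI replicate 6 had the highest sum, and with it the highest Dcn, Lum and Dpt of the 9 tumors. BI replicates 1 and 4, with high Dcn and Lum, had adipocyte sums of 102 and 124 CPM. BI replicate 2 had the second highest sum (214 CPM), with 147 CPM of Dcn and 39.1 CPM of Lum, the latter inside the vehicle range. Without BI replicate 6 the log2 fold change was 0.34 for Dcn, 0.33 for Lum and 0.78 for Dpt. Without BI replicate 1 it was 0.48, 0.35 and 1.03 in the same order. Without BI replicate 3 it was 0.72 for Dcn (edgeR adjusted p = 0.0504), 0.66 for Lum (edgeR adjusted p = 0.124) and 1.13 for Dpt. The parts of fat tissue and of other cell types in these values were not tested.

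Pi16 (Entrez gene 74116), a secreted peptidase inhibitor, is on mm9 chromosome 17, from 29455822 to 29466358. It had 19.1, 23.7 and 22.8 CPM in the vehicle-treated tumors and between 40.8 and 89.1 CPM in the treated tumors, with a median of 62.2. The lowest treated tumor, BI replicate 1, was well above the highest vehicle-treated tumor, and BI replicates 2 (89.1 CPM) and 3 (82.6 CPM) were the highest. Pi16 rose by a log2 fold change of 1.59 (SE 0.209, edgeR adjusted p = 2.49e-04). When single tumors were left out, the change stayed between 1.49 and 1.70 and the edgeR adjusted p at or below 0.00246. Within each tumor, the log2 ratio of Pi16 to Fap was 2.35 ± 0.44 with vehicle and 3.96 ± 0.38 with BI, higher in 6 of 6 treated tumors (exact permutation test, two-sided, p = 0.0238, adjusted 0.0833 over 7 ratios).

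The promoters of Pi16, Pdgfra and S100a4 are shown because these genes set BI replicates 2 and 3 apart from the other treated tumors. Each run holds the 250 bases before the start of the gene in RefSeq on GRCm38.p6, a different build from the mm9 of the counts, read 5′ to 3′ on the strand of the gene. Capitals mark a TATA box (TATAAA) in the promoter of S100a4, the only match of a searched motif in these 3 runs.
Pi16, chr17:29318632-29318881, plus strand: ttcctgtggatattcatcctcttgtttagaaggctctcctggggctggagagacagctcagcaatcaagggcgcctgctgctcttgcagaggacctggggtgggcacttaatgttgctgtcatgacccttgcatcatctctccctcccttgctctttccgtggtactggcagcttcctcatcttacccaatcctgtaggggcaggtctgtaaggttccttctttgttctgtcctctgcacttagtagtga
Pdgfra, chr5:75152001-75152250, plus strand: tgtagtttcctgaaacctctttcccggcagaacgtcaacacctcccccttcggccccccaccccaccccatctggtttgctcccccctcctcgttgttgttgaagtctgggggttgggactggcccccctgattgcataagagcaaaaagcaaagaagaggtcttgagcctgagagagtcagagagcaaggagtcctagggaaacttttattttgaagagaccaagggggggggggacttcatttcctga
S100a4, chr3:90603520-90603769, plus strand: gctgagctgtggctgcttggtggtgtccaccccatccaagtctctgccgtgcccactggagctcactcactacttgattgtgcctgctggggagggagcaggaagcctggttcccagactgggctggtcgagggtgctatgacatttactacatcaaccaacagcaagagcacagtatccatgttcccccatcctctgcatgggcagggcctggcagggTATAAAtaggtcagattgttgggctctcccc

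Promoter sequences were available here for 5 of the 10 markers, the others of the 5 being Dpt and Pdpn. The set of promoters used held none for Pdgfrb, Fap, Thy1, Dcn and Lum. Windows of 250 bases before and 50 after the start were searched on both strands for 6 motifs. These were the TATA box TATAAA, the motif of AP-1 factors TGANTCA, that of TEAD factors GGAATG, that of SP1 and KLF factors GGGCGG, and the E-boxes with letters CACGTG or, in another form, CAGCTG. The TATA box begins at base -31 of S100a4, counted from the start, and 13.6% of the 32851 promoters searched hold it. The promoter of Pi16 holds CAGCTG at base 24 after the start, and that of Dpt holds it at base -200 and at base 7, beside 16.3% of all promoters. In the window of Pdpn, CACGTG begins at base -144 (7.15% of all promoters) and GGGCGG at bases 2 and 45 (35.7%). None of the motifs was found in the window of Pdgfra. The AP-1 letters (in 7.81% of all promoters) and the TEAD letters (14.7%) were in none of the 5 windows, and no match overlapped another. The TATA box letters of Dpt begin at base 13 after its start. These matches describe the letters of the windows only.

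Pi16 was set beside the other genes known for adventitial fibroblasts, a list of 20 of which 19 were tested. Of these, 7 rose and 2 fell, beside 14.6% and 14.1% of all genes tested, with a median log2 fold change of 0.41. Dpp4, a surface peptidase, rose from 6.09 ± 0.32 to 12.5 ± 2.49 CPM, with 6 of 6 treated tumors above the vehicle-treated tumors (log2 fold change 1.03, edgeR adjusted p = 0.00118). Which cells this Dpp4 RNA came from was not tested. Wisp2 (now Ccn5), a matricellular protein, rose from 12.7 ± 3.33 to 30.2 ± 9.11 CPM and Fndc1 from 1.44 ± 0.63 to 4.48 ± 1.63 CPM. Anxa3, an annexin, fell from 192 ± 8.56 to 120.4 ± 14.7 CPM, and Pcolce2 fell from 19.7 ± 5.32 to 9.98 ± 2.32 CPM. The cells that the RNA of Anxa3 and Pcolce2 came from were not tested either. Ly6a, which endothelial cells and lymphocytes express as well, was the most abundant of the list per kilobase. Its level went from 77 ± 26.8 to 132 ± 36.7 CPM (edgeR adjusted p = 0.0394), but the p exceeded 0.05 in 5 of the 9 fits that leave out a tumor: 0.15 without vehicle replicate 2, 0.0934 without vehicle replicate 3, and 0.0686, 0.0619 and 0.064 without BI replicates 4, 5 and 6. The sum of the 20 genes, to which Anxa3 contributed much, was between 429 and 515 CPM with vehicle and between 411 and 581 CPM with BI.

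Lists for other fibroblast states were counted in the same way, beside 14.6% of all genes tested that rose and 14.1% that fell. Of 16 genes of myofibroblast-like CAFs, the contractile state, all tested, 5 rose and 1 fell, with a median log2 fold change of 0.30. Myl9, a myosin light chain, rose from 12.1 ± 3.1 to 20.4 ± 2.18 CPM, Lrrc17 from 2.38 ± 1.03 to 5.91 ± 2 CPM and Col12a1 from 323 ± 92.4 to 604 ± 172 CPM, while Tpm1, a tropomyosin that tumor cells also express, fell from 556 ± 15.7 to 339 ± 42.3 CPM. Without vehicle replicate 1 or 2 the adjusted p was 0.0579 and 0.0563 for Lrrc17 and 0.0747 and 0.0665 for Col12a1. Of 16 genes of inflammatory CAFs, the cytokine-secreting state, 15 were tested, of which 4 rose and 4 fell, with a median log2 fold change of 0.12. Svep1 (from 15.6 ± 4.53 to 37.2 ± 5.15 CPM), Gpx3 (from 25 ± 7.38 to 44.6 ± 10 CPM) and Ccl7 (from 51.1 ± 2.38 to 69 ± 12.9 CPM) rose, and Il33 (from 40 ± 6.5 to 23.4 ± 2.88 CPM), Cxcl1 (from 61 ± 5.44 to 22.1 ± 7.84 CPM) and Lif (from 50.3 ± 4.16 to 29.4 ± 7.55 CPM) fell. All 3 of these falling genes encode cytokines, as does Ccl7, which rose, and cells other than fibroblasts also make them. The adjusted p of Gpx3 was 0.0559 without vehicle replicate 1 and 0.0503 without vehicle replicate 2, and Ccl7 lost its call without any one vehicle replicate (0.125, 0.0751 and 0.113), without BI replicate 1 (0.065), 3 (0.0605), 5 (0.0599) or 6 (0.0636) and in limma-voom (adjusted p = 0.0504). Ccl2, the most abundant of the list per kilobase, had 97.6 ± 18.1 and 72.8 ± 15.8 CPM (edgeR adjusted p = 0.0864). Of 11 transcription factors of fibroblasts tested, 1 rose and 1 fell, with a median log2 fold change of -0.05. Osr2 rose from 2.14 ± 0.51 to 4.38 ± 2.03 CPM and was highest in BI replicates 2 (8.08 CPM) and 3 (5.45 CPM). Twist1, a driver of mesenchymal differentiation, fell from 54.9 ± 4.45 to 41.7 ± 6.52 CPM, and which cells its RNA came from was not tested. Neither call held without vehicle replicate 2 (0.0511 and 0.107) or vehicle replicate 3 (0.136 and 0.0721), and that of Osr2 was also lost without vehicle replicate 1 (0.131) and BI replicate 3 (0.0644, all edgeR adjusted p).

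**Figure D3:**
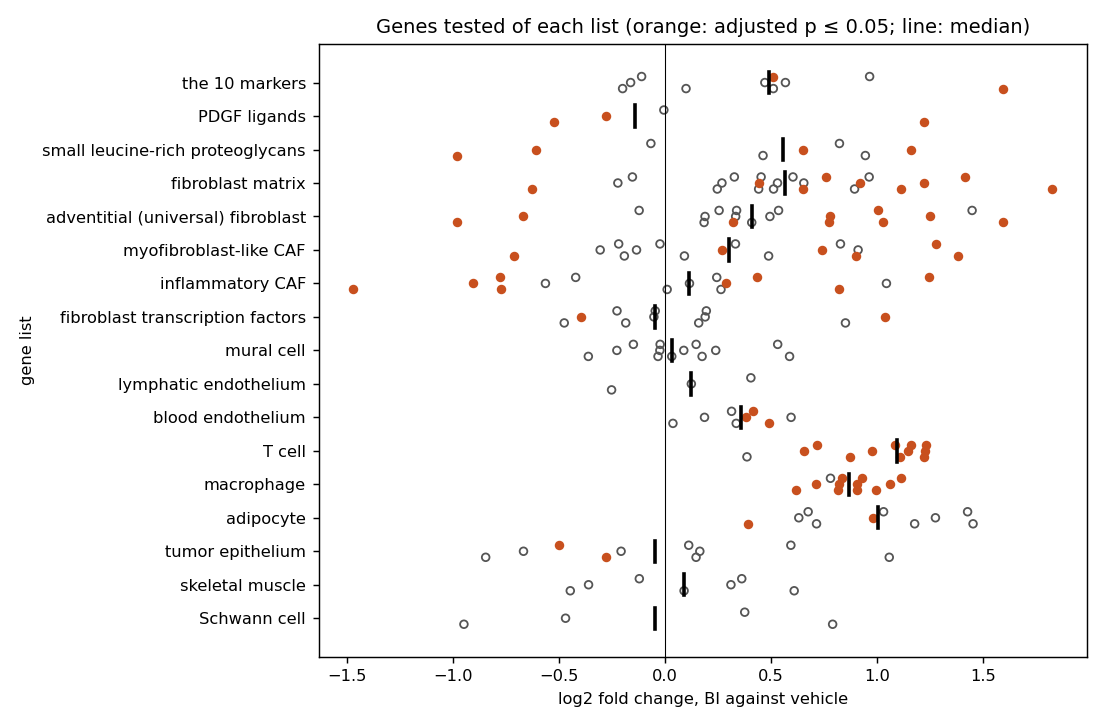
Log2 fold change of BI against vehicle (horizontal axis) for the genes tested of each list (rows), with 1 circle per gene, orange where the gene passed, and a line at the median. The adventitial and matrix lists spread to both sides with medians of 0.41 and 0.57, and the mural list centers at 0.03. The T cell, macrophage, adipocyte and blood endothelium lists lie wholly to the right of 0.

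S100a4 (Entrez gene 20198), a small calcium-binding protein also called fibroblast-specific protein, is on mm9 chromosome 3, from 90407692 to 90409967. It had 874, 658 and 616 CPM with vehicle and between 446 and 871 CPM with BI (median 652). The groups overlapped over most of their range, with BI replicates 2 (446 CPM) and 3 (508 CPM) below every vehicle-treated tumor. Its log2 fold change was -0.16 (SE 0.182, edgeR adjusted p = 0.537), and it was 0.01 without vehicle replicate 1 and -0.08 without BI replicate 2. The log2 ratio of S100a4 to Pdgfra was 0.93 ± 0.49 with vehicle and 0.33 ± 0.81 with BI (exact permutation test, two-sided, p = 0.286), a difference of -0.59 that was -0.31 without vehicle replicate 1 and -0.35 without BI replicate 2. Macrophages can express S100a4, and of 12 macrophage genes, all tested, 11 rose and 0 fell, also 0 at an unadjusted p of at most 0.05 and with DESeq2 and limma-voom, with a median log2 fold change of 0.87. Their sum was between 2929 and 3789 CPM with vehicle and between 5260.4 and 7056 CPM with BI, with none of the 12 at 0. C1qb, Csf1r and Adgre1 had the smallest p, with Csf1r, the receptor for macrophage colony-stimulating factor, rising from 229.9 ± 16.5 to 431 ± 39.6 CPM. Lyz2, the most abundant of them per kilobase, rose from 1209 ± 137 to 1984 ± 471 CPM, with an edgeR adjusted p of 0.0507 without vehicle replicate 3. BI replicate 3, with the highest macrophage sum, had the second lowest S100a4. Among keratins and other genes of the tumor epithelium, 10 tested, 2 fell and 0 rose (1 at an unadjusted p of at most 0.05, 1 with DESeq2 and 0 with limma-voom). Their median log2 fold change was -0.05, with positive values in 5 of the 10. Krt18 fell from 578 ± 57.7 to 409 ± 58.3 CPM, and Krt8 fell from 478 ± 58.3 to 394 ± 38.4 CPM (edgeR adjusted p = 0.0444). The adjusted p of Krt8 was above 0.05 without vehicle replicate 1 (0.138) or 2 (0.195) and without BI replicate 3 (0.0747), 4 (0.0844), 5 (0.0651) or 6 (0.0741). The sum of the 10 epithelial genes, made up almost wholly of these 2 keratins, was between 966 and 1190.5 CPM with vehicle and between 759 and 967 CPM with BI. The parts of macrophages and of tumor cells in the level of S100a4 were not tested.

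**Figure D4:**
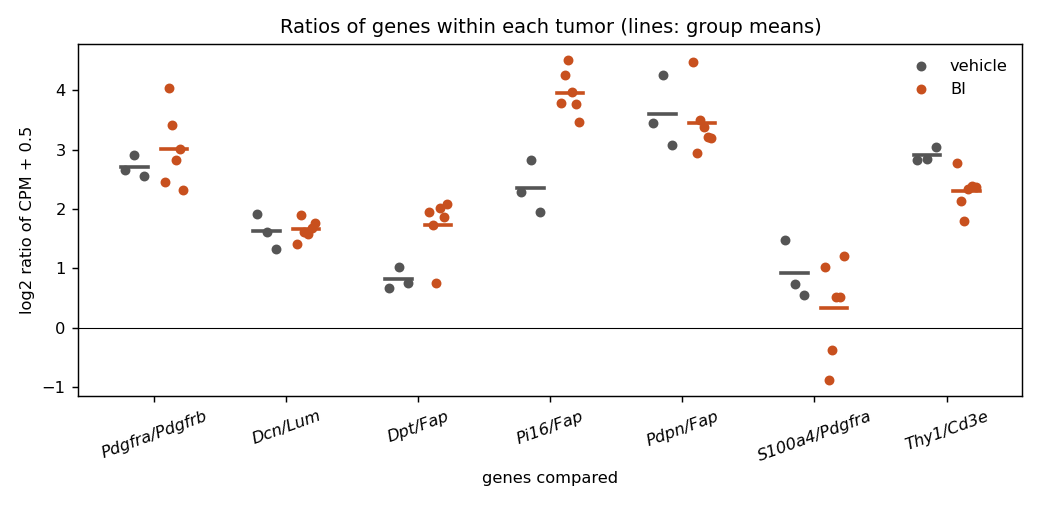
Log2 ratio of 2 genes within each tumor (vertical axis, CPM + 0.5) for 7 pairs of genes, with 1 dot per tumor and a line at the mean of 3 vehicle-treated (grey) or 6 BI-treated tumors (orange). The groups do not overlap for Pi16/Fap, higher in all 6 treated tumors, and for Thy1/Cd3e, lower in all 6.

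Genes of other cell types gave these values. Of 8 genes of blood endothelium, all tested, 3 rose (Kdr from 20.1 ± 1.82 to 26.1 ± 3.25 CPM, Tie1 from 11.4 ± 0.566 to 16 ± 2.9 CPM and Cdh5 from 44.8 ± 3.36 to 59.6 ± 9.56 CPM) and 0 fell, also 0 at an unadjusted p of at most 0.05 and with DESeq2 and limma-voom, with a median log2 fold change of 0.36. Without vehicle replicate 3 the edgeR adjusted p was 0.0754 for Kdr, 0.0714 for Tie1 and 0.0937 for Cdh5, without vehicle replicate 1 it was 0.0831 for Tie1 and 0.0871 for Cdh5, and without vehicle replicate 2 it was 0.0898 for Kdr. Pecam1, the most abundant per kilobase, had 79.9 ± 7.07 and 101 ± 15.7 CPM (edgeR adjusted p = 0.0532, with calls at 0.0168 without BI replicate 3, at 0.0366 without BI replicate 5 and in DESeq2 at 0.0289). Of the skeletal muscle genes (7 tested) and the Schwann cell genes (4 tested), none passed with edgeR. DESeq2 called 1 higher Schwann cell gene, Mbp (adjusted p = 0.0424), and limma-voom 1 lower one. No muscle gene passed with either tool or at an unadjusted p under 0.05, where 1 Schwann cell gene was higher and 1 lower. Mbp had an edgeR adjusted p of 0.0629 (0.0413 without vehicle replicate 1 and 0.046 without BI replicate 3), and Tnnt3, the most abundant muscle gene per kilobase, 0.172. The sums were at most 23.3 CPM for muscle and at most 22 CPM for Schwann cells in any tumor.

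The treated tumors also differed from one another in these markers. Pearson and Spearman correlations of log2 CPM were computed over the 6 BI-treated tumors for all 45 pairs of markers, since the 3 vehicle-treated tumors are too few. At an unadjusted p of at most 0.05 (exact permutation test of Pearson's r, two-sided), 11 pairs passed, and none passed after Benjamini-Hochberg adjustment over the 45 pairs, the smallest adjusted p being 0.0625. This smallest value belonged to Dcn and Lum, with a Pearson r of 0.973 (exact permutation p = 0.00139) and a Spearman rho of 1 (p = 0.00278, adjusted 0.125). Without the 2 tumors farthest from the median of Dcn, r was 0.974.

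Thy1 and S100a4 had the next largest positive r (r = 0.936, exact permutation p = 0.00833, adjusted 0.125, rho = 0.886, p = 0.0333, adjusted 0.188), and r was 0.877 without the 2 tumors farthest in Thy1. For Thy1 the r was also positive with Dcn (r = 0.898, exact permutation p = 0.0194, rho = 0.886, p = 0.0333) and with Lum (r = 0.918, p = 0.0139, rho = 0.886, p = 0.0333), with adjusted p of 0.146 and 0.125 for r and 0.188 for both rho. Without the 2 tumors farthest in Thy1, these r were 0.941 and 0.842. Pdgfra had a positive r with Pi16 (r = 0.906, exact permutation p = 0.0139, rho = 0.829, p = 0.0583) and a negative one with S100a4 (r = -0.937, exact permutation p = 0.00972, rho = -0.886, p = 0.0333), with adjusted p of 0.125 for both r and of 0.202 and 0.188 for rho. Without the 2 tumors farthest in Pdgfra, BI replicates 2 and 3, r was 0.752 with Pi16 and -0.622 with S100a4. Pdgfra and Thy1 had an r of -0.871 (exact permutation p = 0.0333, adjusted 0.167) and a rho of -0.657 (p = 0.175, adjusted 0.315), and r was -0.443 without the 2 tumors farthest in Pdgfra. Pdpn had a negative r with Pdgfra (r = -0.829, exact permutation p = 0.0319, adjusted 0.167, rho = -0.943, p = 0.0167, adjusted 0.188), which was -0.958 without the 2 tumors farthest in Pdgfra. Its r with Pi16 was also negative (r = -0.896, exact permutation p = 0.025, adjusted 0.161, rho = -0.657, p = 0.175, adjusted 0.315), and it was -0.661 without the 2 tumors farthest in Pdpn. S100a4 had a positive r with Lum (r = 0.822, exact permutation p = 0.0431, adjusted 0.176, rho = 0.829, p = 0.0583, adjusted 0.202), which was 0.68 without the 2 tumors farthest in Lum. Its r with Pdgfrb (r = 0.849, exact permutation p = 0.0375, adjusted 0.169, rho = 0.886, p = 0.0333, adjusted 0.188) rested on the 2 tumors farthest in Pdgfrb, without which it was 0.159. Relative to the vehicle mean, BI replicates 2 and 3 were higher in log2 CPM of Pi16 by 2.03 and 1.92 and of Pdgfra by 1.15 and 0.83, while BI replicates 1 and 6 were higher in Dcn by 0.93 and 1.36 and in Lum by 1.15 and 1.22, with Pdgfra at -0.10 and 0.01. Pi16 was above the vehicle mean in all 6. The labels give nothing that separates these tumors.

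**Figure D5:**
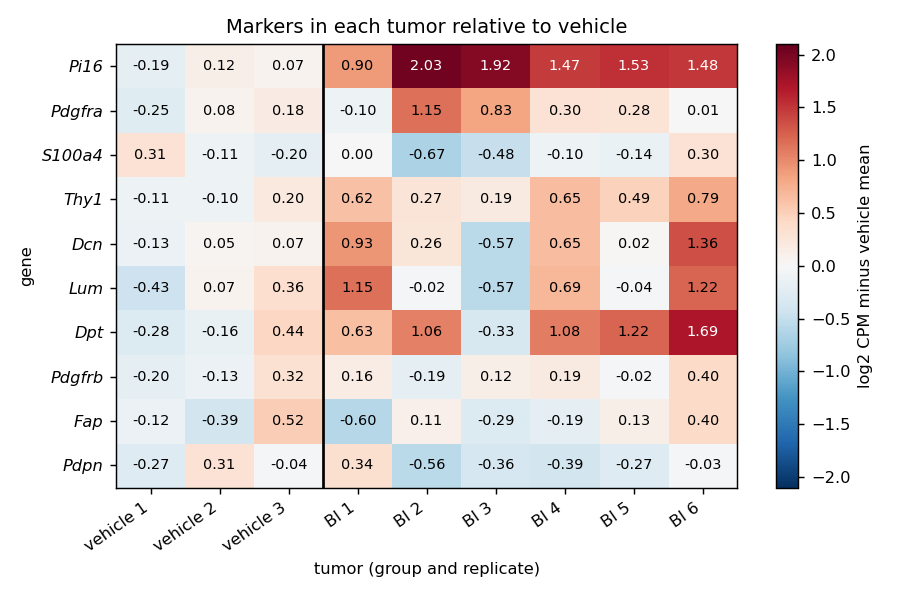
Log2 CPM of each marker (rows) minus the mean of the 3 vehicle-treated tumors, for each tumor (columns, vehicle left of the line), from blue (lower) to red (higher). Pi16 is positive in all 6 treated tumors (0.90 to 2.03), Pdgfra is highest in BI replicates 2 and 3, and Dcn and Lum are highest in BI replicates 1 and 6.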

How the data were processed

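RNA of 9 tumors was prepared as stranded mRNA libraries, 1 per tumor, and paired-end sequenced. Per the labels and methods, the authors mapped to mm9 with STAR, kept unique alignments, and counted with QuasR reads starting in an exon of each RefSeq gene, so the deposited table holds unnormalized counts of 18755 genes. Whether strand was used in counting is not given in the sources used here. No exon of the 10 markers overlaps an exon of another gene in the GENCODE annotation of mm9.

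From these counts, edgeR 4.0.16 (R 4.3.3) was run with TMM normalization, filterByExpr (minimum count 10, minimum total 15) and the quasi-likelihood F test over 13966 genes, with Benjamini-Hochberg adjustment. CPM are TMM-normalized, log2 CPM used a prior count of 2, and standard errors are the log2 fold change divided by the root of F. The script was tested on simulated data. Single ratios used exact permutation of the group labels, which cannot go below p = 0.0238. The labels give no batch and do not pair tumors, and the p-values measure the spread between these tumors. The mean chi-square per gene of any pair of tumors was at least 8.85, above the 1 that counting error alone gives, so no library was a copy of another.

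The 10 markers and the 16 lists (190 entries, 188 in the counts) were chosen with earlier results of these data known. Named genes of a list are the 3 with the smallest p in each direction within the adjusted p limit, plus the most abundant per kilobase. Symbols came from RefSeq (18700 of 18755 genes). Alternatives were RLE, library size, no filter, DESeq2 1.42.0, limma-voom (limma 3.58.1), other added CPM and leaving out each tumor in turn, and those for the lists were added after seeing the data.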

Additional observations from a re-analysis of the deposited data

Results flagged for a closer look

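In 69 values examined over the 6 BI-treated tumors, 4 had 1 tumor far from the others by Dixon's test (critical value 0.625), where chance alone would flag about 1 in 20. The log2 ratio of Dpt to Fap was 0.757 in BI replicate 3, beside 1.73 to 2.08 in the other treated tumors, and the log2 ratio of Pdpn to Fap was 4.47 in BI replicate 1, beside 2.94 to 3.5. Lyz2 had 2870.1 CPM in BI replicate 3, beside 1559 to 2046 CPM, and Fabp4, an adipocyte gene, had 210.3 CPM in BI replicate 6, beside 41 to 102 CPM. No single marker among the 10 had such a tumor.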

How the results depend on the processing

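The number of markers that rose was 2 (adjusted p), and 1 to 3 with each tumor left out: 1 (Pi16) without vehicle replicate 1 or 2, and 3 (with Dpt) without BI replicate 1 or 3. At the study's cutoffs it was 2, it was 1 with limma-voom, and 1 to 4 with a tumor left out, 4 without BI replicate 3 and 1 without vehicle replicate 1 or 2. No marker fell at the adjusted limit under any of these alternatives. In alternatives added after seeing the data, genes of the 16 lists that rose numbered 55, and 32 to 69 with a tumor left out, lowest without vehicle replicate 1 (32) and 2 (35). Those that fell numbered 15, and 11 to 17 under all alternatives. Over all genes tested, 2040 rose and 1973 fell, against 1332 to 1516 and 1172 to 1550 without 1 vehicle replicate. Of the 7 ratios, 3 had an exact p of at most 0.05 (Pi16 to Fap, Dpt to Fap and Thy1 to Cd3e), 1 with 2 CPM added (Pi16 to Fap), and 0 to 3 with a tumor left out, since 28 divisions without a vehicle replicate cannot give a p below 0.0714. Signs changed only for values near 0 that passed no test: Fap (-0.29 to 0.21 with a tumor left out, 0.21 without vehicle replicate 3), S100a4 (-0.27 to 0.01, 0.01 without vehicle replicate 1), the log2 ratio of Pdpn to Fap (-0.40 to 0.19, 0.19 without vehicle replicate 2) and that of Dcn to Lum (-0.11 to 0.19, with -0.11 without vehicle replicate 3 and -0.01 without BI replicate 2). The cause was not tested. With 3 vehicle-treated tumors, changes of the size seen for Dcn and Lum are within the spread between treated tumors.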
